A study of Mus musculus with 6 samples.

Results

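A set of 42 genes for transporters, enzymes and regulators of the kidney proximal tubule was followed in newborn mouse kidney, among 21219 genes tested on the same arrays. The genes were listed by name and role, and their probes were found by accession. All 42 had at least 1 probe. For 41 of them the signal was well above background, the scanner software's call of a spot clearly brighter than its surroundings, on all 6 arrays. The exception was Slc9a3, the sodium-hydrogen exchanger of the brush border, whose probe was well above background on 3 arrays and was not tested. A single probe read 35 members, 6 members had 2 probes and Slc4a4 had 3, and the brightest probe stood for the gene.

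Proximal tubule cells take back most of what the glomerulus filters. Sodium-coupled carriers in the brush border, the microvilli that face the tubule fluid, bring in glucose, amino acids, phosphate and organic acids, while the receptors megalin and cubilin take up filtered protein and organic ion carriers move drugs and waste from blood to urine. These genes are known to be turned on as nephrons mature around birth, and the transcription factor Hnf4a controls many of them.

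Kidneys of neonates taken about 6 hours after birth gave total RNA, which was labelled with Cy3 and hybridised to Agilent single-colour expression arrays, 1 array per animal. Of the 6 arrays, 3 are labelled KO, for a knockout of the deubiquitinase gene Usp10, and 3 are labelled WT, for Usp10 wild type. Separate neonates within each genotype are described in the series' text, all 6 are labelled male, and strain, the deleted part of Usp10 and the cells in which it was deleted are not given in the sources used here. Values below are log2 signals minus the 75th percentile of the same array, so 0 is that percentile, and a level is compared only between arrays and never between probes.

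Several facts of the arrays bear on every value. An array had 64.4% to 73.9% of its 43020 non-control spots well above background and none saturated, and the number of arrays limits the precision. The Usp10 probe, which may lie outside the deleted part and then checks nothing, read higher on all 3 arrays labelled KO (3.52 ± 0.14 against 3.03 ± 0.09, SD, n = 3 each, limma adjusted p = 0.414). KO and WT below therefore mean arrays labelled so, and directions rest on those labels. Every array but WT replicate 2 gave Y-linked signal (Ddx3y, Eif2s3y, Uty) well above background, and Xist, the RNA of the inactive X chromosome, was so only on WT replicates 1 and 2. WT replicate 3 is thus the only WT array with Y-linked and no Xist signal, and differences against it alone are given where they matter. KO replicates 1 and 2 and WT replicates 2 and 3 carry the first scan date, and KO replicate 3 and WT replicate 1 the second. KO replicate 2 stood apart: 39.1% of its signal came from the brightest 1% of spots, while this share was 29.4% to 31.9% elsewhere, and the members that turn or shrink most without it are given both ways.

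No proximal tubule gene passed the test between the genotype labels. By limma over all genes 17 of 21219 (0.0801%) passed an adjusted p of 0.05 and 0 of the 41 measured members did. The lowest adjusted p among the members was 0.315, for Acsm2. At an unadjusted p under 0.05 there were 5 members (12.2%), against 10.4% of all genes. Those 5 were Acsm2 and Hnf4a, higher on the KO arrays (6.21% of all genes), and Kap, Cyp24a1 and Cyp27b1, lower (4.17%). The groups did not overlap for 4 of the 41 members, against 18.2% of all genes. These were Acsm2 and Hnf4a, higher (10.2% of all genes), and Gatm and Cyp27b1, lower (8%). The first share is near that of all genes and the second below it. With 3 arrays per group an exact permutation test of a single gene cannot go below a two-sided p of 0.1.

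The median log2 difference, KO minus WT, was -0.15 over the members, with 17 positive and 24 negative. Over all genes it was 0.031, with 53.7% of genes positive. The values for the members are given next. It was -0.19 within the first scan date and -0.061 within the second, and -0.20 against WT replicate 3 alone. Without KO replicate 2 it was 0.043, with 23 positive and 18 negative. At an unadjusted p under 0.05 there were then 2 of 41 members, against 6.16% of all genes (3.44% higher and 2.72% lower). They were Acsm2 and Slc5a12, both higher. Without KO replicate 1 there were 12 of 41 members, a larger share than the 12.5% of all genes, and the median was -0.31. Of these 12 members, 3 were higher (7.8% of all genes) and 9 lower, a larger share than the 4.7% of all genes. Without WT replicate 3 there was 1 of 41 members, against 5.05% of all genes. The sign and size of the members' median thus depended on which KO array was in the comparison, and the plot of differences with and without KO replicate 2 shows the same gene by gene. Leaving out KO replicate 2 turned the sign for 6 members, Slc22a6, Lrp2, Slc34a3, Slc13a1, Slc13a3 and Mep1b, and left less than 50% of the difference for 12 more. Leaving out another single array turned between 1 and 6 members and left less than 50% for 0 to 5. These counts were not taken over all genes.

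**Figure D1:**
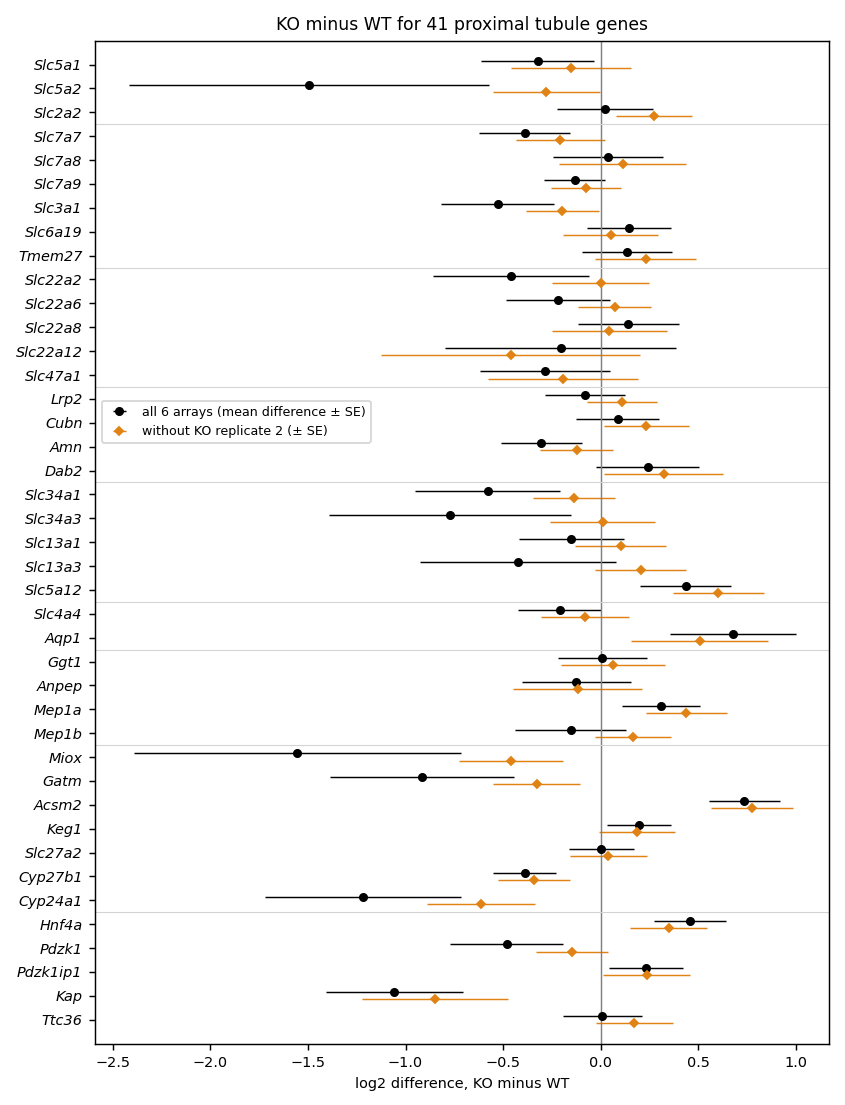
Difference between KO and WT arrays (x axis, log2, KO minus WT) for 41 proximal tubule genes (y axis, grouped by role), with all 6 arrays (black circles) and without KO replicate 2 (orange diamonds); bars are SE from limma. Slc5a2 and Miox lie at -1.50 and -1.55 with all arrays and at -0.28 and -0.46 without that array.

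A larger share of the members than of genes in general was low on KO replicate 2. Each array was set against the median of the other 5, and 11 of 41 members (26.8%) lay over 1 log2 unit below it on KO replicate 2, against 2.07% of 21205 genes measured on every array. On KO replicate 1 and on WT replicates 2 and 3 there was no such member, where 0.934%, 0.519% and 1.7% of genes were so low. On KO replicate 3 there were 2, Slc22a12 and Kap, against 3.97% of genes, and on WT replicate 1 there was 1, Slc22a12, against 4.45%. No member lay over 1 log2 unit above the others on any array. Of all genes, 0.33%, 4.71% and 2.36% did so on KO replicates 1, 2 and 3 and 1.55%, 0.523% and 0.689% on WT replicates 1, 2 and 3. KO replicate 2 was the lowest of the 6 arrays for 24 members (18.5% of all genes). On that array 34 members were below the other arrays' median, and the median deviation was -0.51 for the members against 0.067 for all genes. This array was singled out after its values were seen, and the counts describe 1 array with no test.

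The 11 genes are given by role, in groups of 2 to 7 measured genes, which are too small to compare their shares. They were 3 of 5 carriers of phosphate, sulphate and carboxylates, 3 of 7 metabolic enzymes, 2 of 5 regulators, scaffolds and others, 1 of 3 glucose carriers, 1 of 6 amino acid genes and 1 of 5 organic ion carriers. None of the 4 endocytosis genes, the 4 brush border peptidases or the 2 genes of bicarbonate and water transport was among them. The nearest member inside the limit was Pdzk1 at -1.08 and the nearest outside was Mep1b at -0.86. Over 1.5 log2 units below the others there were 6 members, against 0.674% of all genes.

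**Figure D2:**
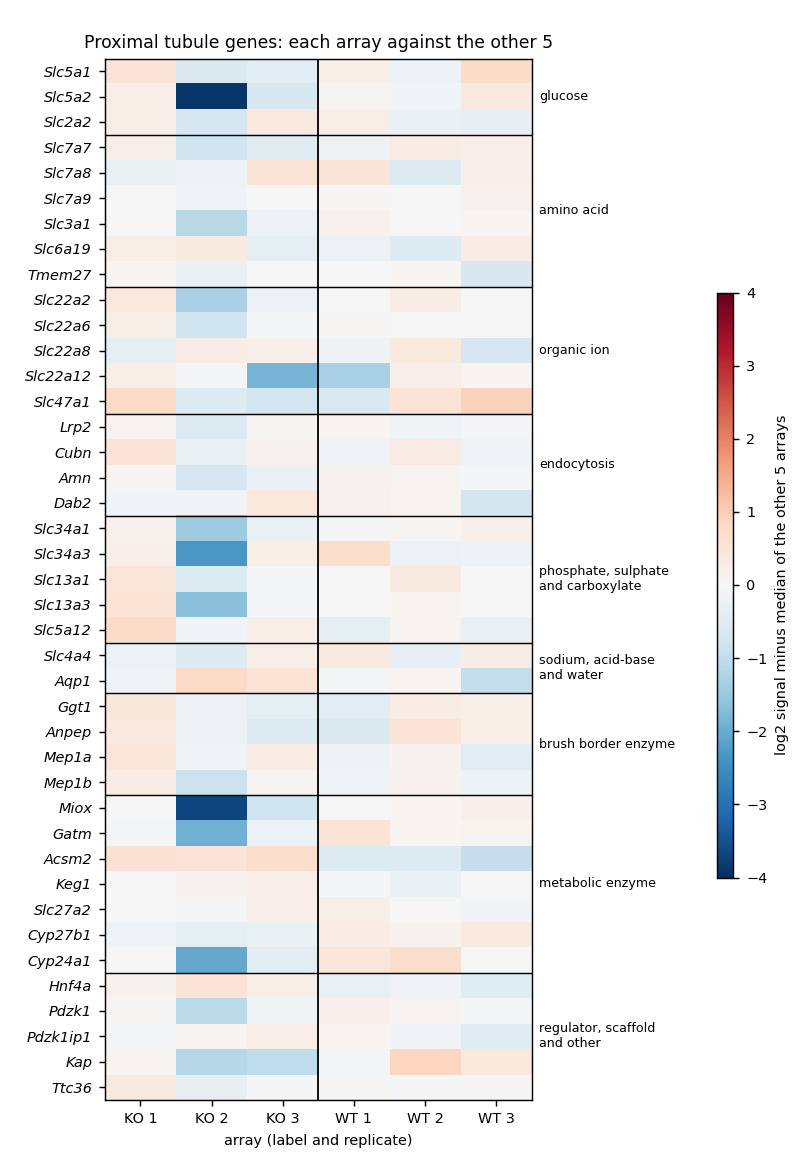
Deviation of each of 41 proximal tubule genes (rows, grouped by role) on each array (columns) from the median of the other 5 arrays, as log2 colour scale. The KO replicate 2 column holds 11 genes below -1, down to -3.89 for Slc5a2, and Slc22a12 is low on KO replicate 3 and WT replicate 1.

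Among the glucose carriers, Slc5a2 encodes SGLT2, the main sodium-glucose cotransporter of the early proximal tubule. It read 0.80, -3.23 and 0.031 on KO replicates 1, 2 and 3 and 0.66, 0.54 and 0.89 on WT replicates 1, 2 and 3. On KO replicate 2 the signal was thus 14.8-fold below the median of the other arrays, and of 21205 genes only 1 was lower by more. The difference between the groups was -1.50 ± 0.92 (SE, limma adjusted p = 0.563), and -0.28 ± 0.27 without KO replicate 2. Slc5a1, for the high-affinity cotransporter SGLT1, differed by -0.32 ± 0.29 with overlapping groups, and by -0.15 ± 0.31 without KO replicate 2. Slc2a2, for GLUT2, through which glucose leaves the cell on the blood side, differed by 0.023 ± 0.25. On KO replicate 2 these lay 0.58 and 0.67 log2 units below the other arrays' median, so both were far less low there than Slc5a2.

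Of the 6 amino acid genes, only Slc3a1 was over 1 log2 unit low on KO replicate 2. Slc3a1 and Slc7a9 encode the heavy and light subunits of the cystine and basic amino acid carrier, which work as a pair. Slc3a1 read 1.61, 0.50 and 1.38 on the KO arrays and 1.77, 1.6 and 1.69 on the WT arrays. Slc7a9 read 0.47, 0.30 and 0.47 and 0.53, 0.47 and 0.64 in the same order. The heavy subunit was 1.11 below the other arrays' median on KO replicate 2 and the light subunit 0.17 below. The differences between groups were -0.53 ± 0.29 and -0.13 ± 0.16, and -0.20 ± 0.19 and -0.075 ± 0.18 without that array. Slc7a7 and Slc7a8, light subunits of carriers on the blood side, differed by -0.39 ± 0.23 and 0.038 ± 0.28, the first by -0.21 ± 0.23 without KO replicate 2. Slc6a19, the neutral amino acid carrier of the brush border, and Tmem27 (collectrin), its partner protein, differed by 0.15 ± 0.22 and 0.14 ± 0.23. A dimmer second probe of Tmem27 gave -0.040 ± 0.18, and without KO replicate 2 Slc6a19 differed by 0.051 ± 0.24, so neither has a settled direction. None of the 6 had an unadjusted p under 0.05.

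Organic ion carriers showed a low array in different places for different genes. Slc22a2 (OCT2, the organic cation carrier of the blood side) read 1.96, 0.27 and 1.33 on the KO arrays and 1.53, 1.84 and 1.56 on the WT arrays. KO replicate 2 was 2.45-fold below the others, and the group difference of -0.46 ± 0.40 became -0.00085 ± 0.25 without it. Slc22a6 (OAT1, the organic anion carrier) was 0.79 below the others on that array, and its difference of -0.22 ± 0.27 was 0.071 ± 0.19 without it. Slc22a8 (OAT3) was 0.30 above there. Slc47a1 (MATE1, which passes cations into the urine) read -0.93, -1.69 and -1.90 on the KO arrays and -1.75, -1.15 and -0.77 on the WT arrays, so that KO replicate 3 and WT replicate 1 were its lowest arrays and KO replicate 2 came next. Slc22a12 (URAT1, a urate carrier) read -2.84, -3.08 and -4.85 on the KO arrays and -4.29, -2.87 and -2.99 on the WT arrays. Both arrays of the second scan date, KO replicate 3 and WT replicate 1, were the low ones. The mean of the second scan date minus that of the first was -1.62, and the values of the scan dates do not overlap. Its difference between the labels was -0.21 ± 0.59, and -0.027 and -0.56 within the first and second scan dates. In all, the scan dates did not overlap for 8 of 41 members. The second date was lower for Slc22a12, Slc47a1, Ggt1 and Anpep (19.4% of all genes) and higher for Slc7a8, Dab2, Slc34a3 and Slc27a2 (15.6%), so both shares were below those of all genes.

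The endocytosis genes were close between labels. Lrp2 (megalin) read 4.37, 3.81 and 4.38 on the KO arrays and 4.35, 4.18 and 4.27 on the WT arrays, with KO replicate 2 lowest and the other 5 arrays between 4.18 and 4.38. Cubn (cubilin) differed by 0.087 ± 0.21, Amn (amnionless, which carries cubilin to the membrane) by -0.30 ± 0.21 and Dab2, the adaptor of the receptors' tails, by 0.24 ± 0.26. Lrp2 itself differed by -0.080 ± 0.20. Without KO replicate 2, Lrp2 and Amn differed by 0.11 ± 0.18 and -0.12 ± 0.19. A dimmer second probe of Cubn gave the opposite sign, -0.43 ± 0.22 (limma adjusted p = 0.518), so the direction for cubilin depends on the probe. The 4 genes lay between 0.15 and 0.67 below the other arrays on KO replicate 2.

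Of the 5 phosphate, sulphate and carboxylate carriers, 3 were over 1 log2 unit low on KO replicate 2. After normexp background correction scaled on the 75th percentile there were 2, with Slc34a3 at -0.86. With normexp and quantile normalisation Slc34a3 deviated by -1.24 and stayed among them. Slc34a1, the main phosphate cotransporter of the adult segment, read 3.15, 1.6 and 2.72 on the KO arrays and 2.99, 3.03 and 3.19 on the WT arrays. Slc34a3, a second phosphate cotransporter of the brush border, read -1.70, -4.03 and -1.66 against -1.22, -1.94 and -1.91. On both, KO replicate 2 was well under all other arrays, which lay within a range narrower than that gap. The deviations there were -1.43 and -2.33, and the differences between labels, -0.58 ± 0.37 and -0.77 ± 0.62, became -0.14 ± 0.21 and 0.010 ± 0.27 without that array. The dimmer second probe of Slc34a1 was 0.73 below the others on KO replicate 2. Slc13a3, a dicarboxylate carrier of the blood side, read 1.78, -0.41 and 1.17 on the KO arrays and 1.25, 1.32 and 1.24 on the WT arrays. Its difference turned from -0.42 ± 0.50 to 0.21 ± 0.23 without KO replicate 2. Slc13a1, the sulphate carrier, was 0.56 below the others there, and its difference turned from -0.15 ± 0.27 to 0.10 ± 0.23.

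Slc5a12, a sodium-lactate cotransporter, was on average higher on the KO arrays. It read 1.28, 0.55 and 0.81 on the KO arrays and 0.28, 0.67 and 0.39 on the WT arrays, with WT replicate 2 above the lowest KO array. The difference was 0.44 ± 0.23 (limma adjusted p = 0.526), 0.60 ± 0.23 without KO replicate 2 (adjusted p = 0.784) and 0.23 ± 0.22 without KO replicate 1 (adjusted p = 0.674). A second probe gave 0.52 ± 0.22.

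Of the sodium, acid-base and water genes, Aqp1, the water channel of proximal and thin-limb cells, read 3.34, 4.16 and 3.96 on the KO arrays and 3.41, 3.48 and 2.54 on the WT arrays. KO replicate 2 was the highest array here and WT replicate 3 the lowest. The difference was 0.68 ± 0.32 (limma adjusted p = 0.50), with 0.74 and 0.55 within the first and second scan dates and 0.51 ± 0.35 without KO replicate 2. It was 1.28 against WT replicate 3 alone and 0.38 ± 0.28 without that array, so its size rests on WT replicate 3. Slc4a4, the sodium-bicarbonate cotransporter of the blood side, differed by -0.21 ± 0.21. Its other probes gave -0.16 ± 0.22 and 0.31 ± 0.22, so the sign depends on the probe. Slc9a3 read -6.32, -5.14 and -6.45 on the KO arrays and -6.01, -5.89 and -5.99 on the WT arrays, and was well above background on KO replicate 2 and WT replicates 2 and 3 alone, so no difference is given.

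The brush border peptidases Ggt1 (gamma-glutamyltransferase), Anpep (aminopeptidase N), Mep1a and Mep1b (the meprin subunits) differed by 0.0091 ± 0.23, -0.13 ± 0.28, 0.31 ± 0.20 and -0.15 ± 0.29. The groups overlapped for all of them. Mep1b read 4.12, 3.07 and 3.94 on the KO arrays and 3.84, 4.02 and 3.73 on the WT arrays, so KO replicate 2 was 1.82-fold below the others' median, whereas its partner Mep1a was 1.11-fold below. The Mep1b difference was 0.17 ± 0.19 without KO replicate 2.

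The metabolic enzymes held Miox and Gatm, both low on KO replicate 2, and Acsm2, the member with the lowest p. Miox, the myo-inositol oxygenase that is made almost only in proximal tubule, read 3.81, 0.13 and 3.01 on the KO arrays and 3.78, 3.86 and 3.97 on the WT arrays. KO replicate 2 was 12.9-fold below the median of the others and KO replicate 3 the next lowest. The difference was -1.55 ± 0.84 (limma adjusted p = 0.529) and -0.46 ± 0.27 without KO replicate 2 (adjusted p = 0.799). Gatm, which makes the precursor of creatine, read 1.74, -0.11 and 1.58 on the KO arrays and 2.30, 1.81 and 1.86 on the WT arrays. All KO arrays lay below all WT arrays, by -0.92 ± 0.47 (adjusted p = 0.520) on average and by -0.33 ± 0.22 without KO replicate 2.

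The vitamin D enzymes were both lower on the KO arrays at an unadjusted p under 0.05 only. Cyp27b1 makes the active hormone and Cyp24a1 breaks it down. Cyp27b1 read -0.54, -0.75 and -0.66 on the KO arrays and -0.23, -0.40 and -0.15 on the WT arrays, without overlap, a difference of -0.39 ± 0.16 (limma adjusted p = 0.475). It was -0.37 and -0.43 within the first and second scan dates. Cyp24a1 read 0.50, -1.55 and 0.032 on the KO arrays and 0.96, 1.18 and 0.48 on the WT arrays, and KO replicate 1 exceeded WT replicate 3. Its difference of -1.22 ± 0.50 (adjusted p = 0.475) was -0.61 ± 0.27 without KO replicate 2.

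Acsm2, a medium-chain acyl-CoA synthetase of mitochondria, went the other way. It read 2.39, 2.33 and 2.51 on the KO arrays and 1.80, 1.82 and 1.41 on the WT arrays, with a gap between the groups. The mean was 1.67-fold higher on the KO arrays, a log2 difference of 0.74 ± 0.18 (limma adjusted p = 0.315, and 0.145 with scan date as a block). The difference was 0.75 and 0.71 within the first and second scan dates, 1.01 when WT replicate 3 was the sole WT array and 0.78 ± 0.21 without KO replicate 2. Of the 41 members it was the only one with an unadjusted p under 0.05 both with all arrays and without KO replicate 2. Slc27a2, a fatty acid carrier and very long-chain acyl-CoA synthetase, and Keg1, named for its expression in kidney, differed by 0.0042 ± 0.17 and 0.19 ± 0.16.

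Among regulators, scaffolds and others, Hnf4a, the nuclear receptor needed for proximal tubule identity, read 4.88, 5.27 and 4.98 on the KO arrays and 4.60, 4.76 and 4.39 on the WT arrays. The groups did not overlap and KO replicate 2, where many members were low, was the highest array. The difference was 0.46 ± 0.18 (limma adjusted p = 0.471), with 0.50 and 0.38 within the first and second scan dates. It was 0.35 ± 0.20 without KO replicate 2 and 0.36 ± 0.20 without WT replicate 3, its lowest array. Pdzk1, the scaffold that holds brush border carriers in place, read 3.85, 2.76 and 3.68 on the KO arrays and 4.01, 3.92 and 3.81 on the WT arrays, and its second probe gave a similar deviation on KO replicate 2 (-1.15 against -1.08). Its difference of -0.48 ± 0.29 was -0.15 ± 0.18 without that array. Pdzk1ip1, a membrane protein that binds Pdzk1, differed by 0.23 ± 0.19.

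Kap, an androgen-regulated kidney gene, read 3.58, 2.46 and 2.57 on the KO arrays and 3.51, 4.35 and 3.92 on the WT arrays. KO replicates 2 and 3 were the low arrays, and KO replicate 1 lay above WT replicate 1. The mean was 2.08-fold lower on the KO arrays, a log2 difference of -1.06 ± 0.35 (limma adjusted p = 0.423), and -0.85 ± 0.37 without KO replicate 2. Within the first and second scan dates it was -1.12 and -0.94. WT replicate 2, the array with no Y-linked signal, gave the highest Kap value, and against WT replicate 3 alone the difference was -1.05. Ttc36 differed by 0.0092 ± 0.20.

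**Figure D3:**
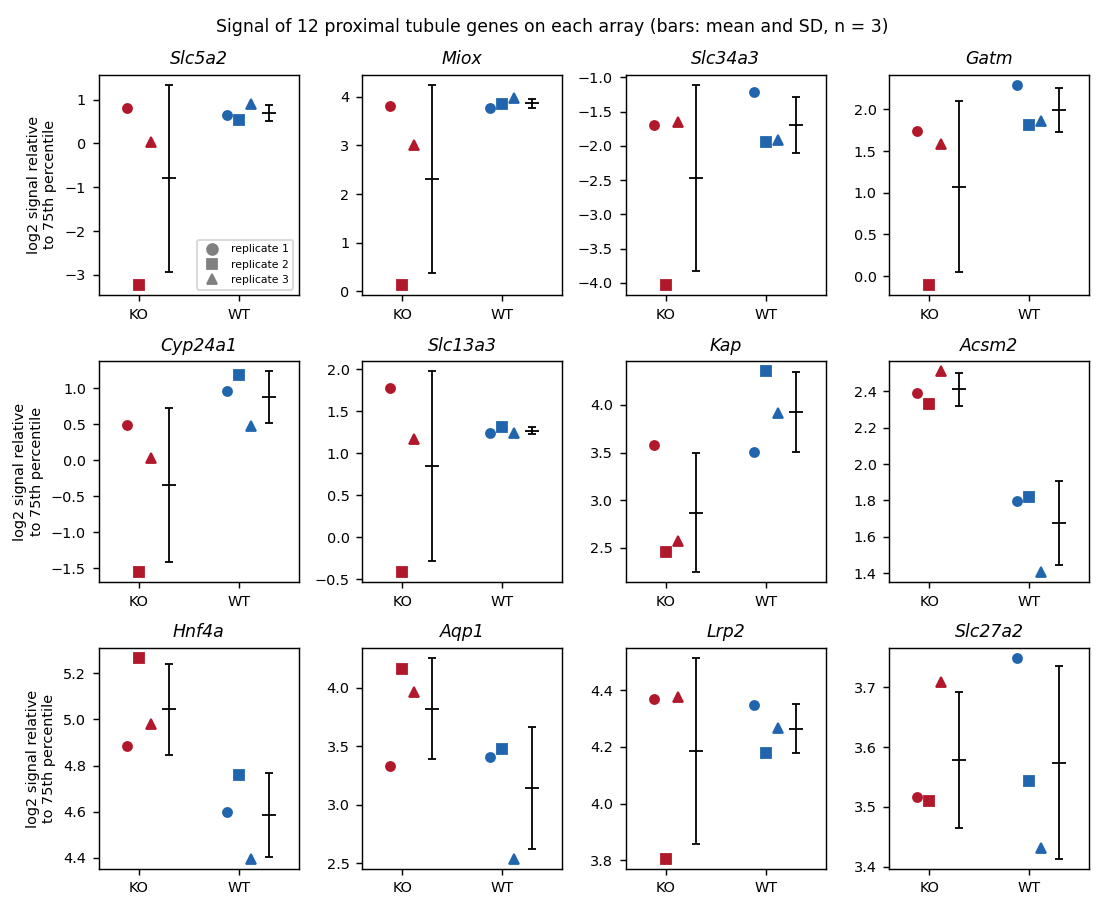
Log2 signal relative to the array's 75th percentile (y axis, a scale of its own in each panel) of 12 proximal tubule genes on the KO (red) and WT (blue) arrays; symbols mark replicates 1, 2 and 3, and black bars are mean and SD (n = 3). KO replicate 2 (red square) is far below the rest for Slc5a2, Miox, Slc34a3, Gatm, Cyp24a1 and Slc13a3, the groups separate for Acsm2 and Hnf4a, and Lrp2 and Slc27a2 overlap.

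The count on KO replicate 2 was also taken under other processing, chosen after the data were seen. Scaling on the array median or quantile normalisation gave 12 members, 11 of them shared, against 3.42% and 3.3% of all genes. After normexp background correction, scaled as before, there were 10, against 0.481% of all genes, and Slc34a3, a dim probe, then deviated by -0.86. With normexp and quantile normalisation there were also 10, against 0.641%, and Slc3a1 deviated by -0.95. Against the arrays of the same scan date the count was 11 (2.13% of all genes). Against the other KO arrays alone it was 9 (1.72%), with Kap at -0.62 and Slc3a1 at -0.99. The share of all genes moved more with the background correction than the members' count did. Slc5a2 deviated by between -4.08 and -2.57 and Miox by between -3.88 and -3.29 in these settings, so the 2 lowest members stayed the lowest in each.

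Promoters are shown for 4 of the low members on KO replicate 2 and for the 2 members higher on all KO arrays, so that their sequence can be set beside the values. They are the 250 bases before the RefSeq gene start (assembly GRCm38.p6), written 5′ to 3′ on the gene's strand. Capitals mark AGGTCA or its reverse complement TGACCT, the core letters bound by nuclear receptors such as HNF4A, and the windows of Slc34a1, Acsm2 and Hnf4a hold neither. The window of Kap, another low member that is not shown, also holds neither. The genes shown are thus a choice, and the count over the low members is given below. The regions are chr15:89334223-89334472 (plus strand) for Miox, chr13:55399398-55399647 (plus) for Slc34a1, chr2:25234235-25234484 (minus) for Slc34a3, chr2:122611278-122611527 (minus) for Gatm, chr7:119554090-119554339 (plus) for the upstream start of Acsm2 and chr2:163546905-163547154 (plus) for the downstream start of Hnf4a.
Miox: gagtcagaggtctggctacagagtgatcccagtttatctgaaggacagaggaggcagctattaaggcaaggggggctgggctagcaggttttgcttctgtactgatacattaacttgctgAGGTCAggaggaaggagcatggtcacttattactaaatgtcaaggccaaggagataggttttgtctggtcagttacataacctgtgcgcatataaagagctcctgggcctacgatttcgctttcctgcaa
Slc34a1: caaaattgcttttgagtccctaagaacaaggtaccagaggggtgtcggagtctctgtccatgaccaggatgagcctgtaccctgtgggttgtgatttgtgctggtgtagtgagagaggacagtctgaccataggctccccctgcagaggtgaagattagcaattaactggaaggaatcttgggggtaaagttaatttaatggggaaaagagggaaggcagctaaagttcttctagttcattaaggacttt
Slc34a3: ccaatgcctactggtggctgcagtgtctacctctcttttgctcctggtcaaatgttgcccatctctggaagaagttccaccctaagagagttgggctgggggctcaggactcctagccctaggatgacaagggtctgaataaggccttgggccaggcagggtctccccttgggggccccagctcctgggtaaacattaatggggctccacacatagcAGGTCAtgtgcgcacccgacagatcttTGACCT
Gatm: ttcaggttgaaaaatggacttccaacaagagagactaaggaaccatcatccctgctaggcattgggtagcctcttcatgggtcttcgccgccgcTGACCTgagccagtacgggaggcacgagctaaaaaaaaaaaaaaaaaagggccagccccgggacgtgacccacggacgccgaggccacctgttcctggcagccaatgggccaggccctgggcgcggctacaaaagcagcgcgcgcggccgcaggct
Acsm2: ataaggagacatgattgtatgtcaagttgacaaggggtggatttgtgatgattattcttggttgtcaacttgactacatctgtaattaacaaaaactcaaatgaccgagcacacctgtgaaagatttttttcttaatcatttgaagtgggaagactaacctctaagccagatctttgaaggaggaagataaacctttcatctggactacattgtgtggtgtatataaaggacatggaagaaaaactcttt
Hnf4a: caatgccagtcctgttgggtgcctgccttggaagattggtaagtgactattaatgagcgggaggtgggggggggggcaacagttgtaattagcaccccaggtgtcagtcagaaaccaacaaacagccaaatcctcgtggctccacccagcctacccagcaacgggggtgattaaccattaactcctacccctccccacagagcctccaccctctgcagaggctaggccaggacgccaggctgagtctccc

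Of the members, 35 had an entry in the promoter table. On either strand of the 250 bases, AGGTCA occurred in 10 of these 35 genes (28.6%), against 15.8% of all 27025 genes in the table. The 10 were Slc2a2, Slc7a7, Slc7a9, Slc34a3, Slc4a4, Ggt1, Miox, Gatm, Slc27a2 and Pdzk1. Miox carried these letters 130 bases before its start, Slc34a3 at 33 and 6 bases and Gatm at 156 bases. The repeat AGGTCANAGGTCA (N is any base) was in 0 of 35, and in 0.0407% of all genes. Of the members low on KO replicate 2, 9 were in the table and 4 of them carried AGGTCA, so the letters were not common to all the low genes. A match of 6 letters is a description of the sequence, not a bound site.

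Other proximal tubule genes, from 7 lists of 157 genes that hold no member, also held low values on KO replicate 2. Of these, 149 were measured, 0 passed an adjusted p of 0.05 by limma, and 12 (8.05%) had an unadjusted p under 0.05, 9 higher and 3 lower, against 10.4% of all genes. Their median difference was -0.0017. On KO replicate 2, 16 of 149 (10.7%) lay over 1 log2 unit below the other arrays and 6 lay over 1 above, against the 2.07% below and 4.71% above for all genes. The 16 included the amino acid carrier genes Slc7a13 (-2.33) and Slc6a20b (-1.88), the renal dipeptidase gene Dpep1 (-1.74) and the sugar carrier genes Slc5a11 (-1.74) and Slc5a10 (-1.63). The 6 included the glucose carrier genes Slc2a1 (1.1) and Slc2a9 (1.21) and the peptide carrier gene Slc15a2 (1.59). Slc6a20b, Dpep1 and Slc5a11 are named after their values were seen.

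By list, the share over 1 below on KO replicate 2 was 2 of 8 other glucose and sugar carriers, 3 of 19 amino acid and peptide carriers, 5 of 22 organic ion carriers, 6 of 44 brush border and metabolic enzymes, and 0 of 18 endocytosis genes and 0 of 24 mineral, acid-base and water genes. In lists of this size a count of 0 is near the 2.07% of all genes. The other endocytosis genes thus had no low gene there, as with Lrp2, Cubn, Amn and Dab2. Their group medians were -0.016 for the KO minus WT difference and 0.046 for the deviation on KO replicate 2.

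The list of proximal tubule regulators holds transcription factors, nuclear receptors and genes of nephron patterning and adhesion (Notch2, Jag1, Wnt4, Cdh6, Cdh16), and 14 of its genes were measured. Of these, 0 were over 1 below on KO replicate 2, a count near the 2.07% of all genes, and the median deviation there was 0.28 against 0.067 for all genes. By limma 0 passed an adjusted p of 0.05, and 4 were higher at an unadjusted p under 0.05 (6.21% of all genes). The bile acid receptor gene Nr1h4 read 1.91, 1.68 and 1.95 on the KO arrays and 0.71, 0.63 and 0.63 on the WT arrays, a difference of 1.19 ± 0.16 (limma adjusted p = 0.0623, and 0.0367 with scan date as a block). Maf and Ppara, a transcription factor and a fatty acid receptor, differed by 0.45 ± 0.16 and 0.66 ± 0.24. The groups did not overlap for 6 of the 14, all higher on the KO arrays (10.2% of all genes). Pth1r, the parathyroid hormone receptor, stands on the mineral list and read lower on KO replicates 2 and 3 (1.44 and 1.67) than on the other arrays (2.24 to 2.75), a difference of -0.63 ± 0.28. It is named after its values were seen.

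Among the other enzymes, Nat8, which acetylates cysteine conjugates, read 1.03, 0.69 and 1.16 on the KO arrays and -0.086, -0.18 and -0.40 on the WT arrays. Its difference was 1.18 ± 0.19 (limma adjusted p = 0.100, and 0.0515 with scan date as a block), and 1.32 without KO replicate 2. Treh, the trehalase of the brush border, differed by 0.94 ± 0.27 (adjusted p = 0.377). Both separated the groups completely, like Acsm2, but neither passed.

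Markers of other kidney cells also deviated on KO replicate 2. Podocyte markers had a median deviation of -0.84 there, with 3 of 8 over 1 below. Their summed signal, in multiples of each array's 75th percentile, was 21.1 on KO replicate 2, 40.6 and 37.0 on KO replicates 1 and 3, and 28.6 to 39.5 on the WT arrays. Here and below, such sums weigh the brightest probes of a list most. The 41 proximal tubule members summed to 244 on that array, 322 and 294 on KO replicates 1 and 3, and 265 to 317 on the WT arrays. Stromal, nephron progenitor and cell cycle markers had median deviations of -0.65, -0.50 and -0.55 there, with 2 of 8, 0 of 8 and 0 of 8 over 1 below. Macrophage markers had a median below the other arrays on every KO array, with deviations of -0.46, -0.88 and -0.49 on KO replicates 1, 2 and 3. For 4 of 7 the groups did not overlap, lower on the KO arrays (8% of all genes), and their summed signal was 5.07 to 5.39 on the KO and 5.86 to 6.95 on the WT arrays.

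Most markers of the more distal nephron were above the other arrays' median on KO replicate 2. There were 8 of 10 loop of Henle and distal tubule markers above it, with a median deviation of 0.42, and 8 of 9 collecting duct markers, with 0.37. For all genes the median deviation on that array was 0.067. Their summed signals there were 33.0 and 31.9, against 21.4 to 24.1 and 17.9 to 23.6 on the WT arrays. On KO replicate 1 these sums were 18.0 and 16.6, below all WT arrays. On KO replicate 3 they were 25.8 and 28.3, above all WT arrays. The calcium-binding protein gene Calb1 read 2.41 on KO replicate 2 and between -0.11 and 1.09 on the others, while Cldn16 and Pvalb had their lowest value on that array (deviations of -0.37 and -0.39). Urothelial markers summed to 6.68, 9.75 and 7.08 on KO replicates 1, 2 and 3 and to 4.35 to 5.55 on the WT arrays, so their sum was higher on every KO array and highest on KO replicate 2.

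Of the outside tissues, 4 of 8 adrenal, 6 of 9 liver and 3 of 6 gut markers were well above background on all 6 arrays. The adrenal genes Cyp11a1 and Cyp11b2, the liver gene Apoa1 and the gut gene Cdx2 were so on no array. Summed signals on the KO and WT arrays were 0.74 to 0.90 and 0.63 to 0.70 for the adrenal list, 10.7 to 17.4 and 12.3 to 13.2 for the liver list, and 1.88 to 3.24 and 3.09 to 3.75 for the gut list. The median log2 difference of the adrenal list was -0.083, so its sum and its median differ in direction. The part of these markers, of the signal held by the brightest spots and of scan date in the low proximal tubule values was not tested. In whole kidney RNA, fewer proximal tubule cells and less RNA of a gene per cell cannot be told apart.

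**Figure D4:**
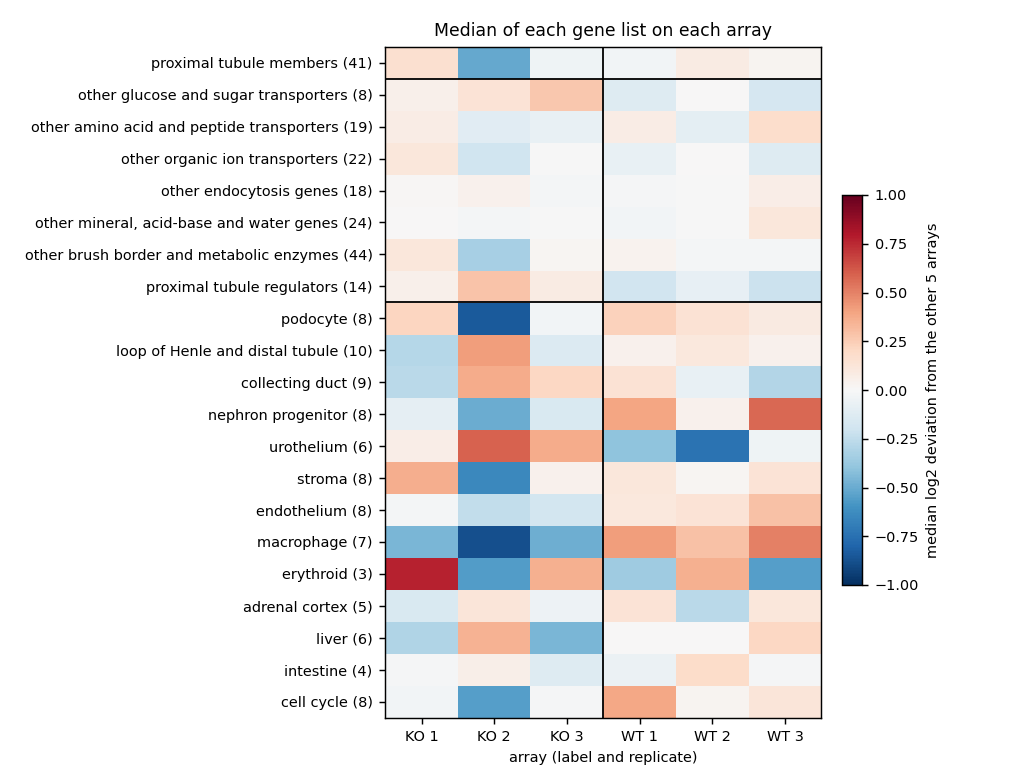
Median deviation of each gene list (rows, number of measured genes in brackets) on each array (columns) from the median of the other 5 arrays, as log2 colour scale. On KO replicate 2 the proximal tubule members lie at -0.51 and podocyte markers at -0.84, while loop of Henle, collecting duct and urothelial markers lie at 0.42, 0.37 and 0.59.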

How the data were processed

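Kidney RNA of 6 neonates was read on 1-colour Agilent arrays. Per the file headers, the deposited intensity is the linear, background-subtracted spot signal that the authors' Feature Extraction software wrote, with no scaling between arrays. The headers give version 11.0.1.1 and the submitters' processing notes 9.1.

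Control spots (1377 of 44397) and outlier spots were left out. Signals were put on the log2 scale relative to the 75th percentile of the array's other spots, and repeated spots were averaged. RefSeq (GRCm38.p6, not the build of the array design) named 27234 of 39429 probes (69.1%) by accession and gave the promoters. Probes had to be well above background throughout the KO or the WT arrays, and the brightest such probe was used per gene. Of 21219 genes, 14 had an array missing and have no deviation or overlap call.

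The test was limma 3.58.1 (R 4.3.3, two-sided), with p adjusted over all genes by Benjamini-Hochberg and a threshold of 0.05, tested on simulated data, and SE are limma's. Tables were made with Python 3.11.15 and pandas 2.3.3. Named were all members, Usp10 and the sex-linked probes, up to 4 genes by smallest p from each list of other proximal tubule genes, and from each marker list up to 3 by smallest p or its defining markers; some genes that these rules name are not reported here. The members and lists were chosen with earlier results of these data known. Alternatives were other scalings, normexp (on the median signal), filters, probe rules, variance models, blocks and left-out arrays.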

Additional observations from a re-analysis of the deposited data

How the results depend on the processing

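No member passed an adjusted p of 0.05 by limma in any setting run. By an absolute log2 difference of at least 1 with an unadjusted p under 0.05 there were 2 members (Cyp24a1 and Kap) and 356 genes. The members' median stayed within 1 SD of the arrays' medians (0.20) in each setting. It was positive only without KO replicate 2, at 0.043 against -0.15 with all arrays, so its sign depended on that array. The count of members over 1 log2 unit below the other arrays on KO replicate 2 was 9 to 12 and fell to 6 only with the limit at 1.5.

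The count of 17 genes past the threshold was less stable. It was 45 with an intensity trend and robust variance, 36 with array weights, 53 with scan date as a block, and 1 with probes well above background on all 6 arrays or when the probes of a gene were averaged. It was 0 with normexp and quantile normalisation, with no filter on dim probes and against WT replicate 3 alone, where 2245, 2050 and 2019 genes had an unadjusted p under 0.05. It was 28 without KO replicate 3 and 0 without any of the other 5 arrays in turn, where between 1071 and 2653 genes had an unadjusted p under 0.05. Normexp with the 75th percentile moved the median of all genes to 0.15 and no filter to 0.12. The deviations of same-numbered KO and WT replicates had correlations of -0.40, 0.48 and -0.60. Only the arrays numbered 2 share a scan date, so these values cannot show whether the replicate numbers pair the samples. With a replicate block 0 genes passed, with 1612 at an unadjusted p under 0.05. The causes were not tested.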

Other observations

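Of 6 measured liver markers, Alb and Ahsg were over 1 log2 unit below the other arrays on KO replicates 1 and 3. They read -5.11 and -3.97 on KO replicate 1, -1.79 and -0.69 on KO replicate 2 and -3.20 and -1.94 on KO replicate 3, while on the WT arrays Alb lay between -1.92 and -1.54 and Ahsg between -0.42 and 0.052. The other 4 liver markers did not share this, with 3 of the 6 differences positive and 3 negative. Of 5 measured adrenal markers, Hsd3b1 and Mc2r were higher on all KO arrays than on all WT arrays. Hsd3b1 read -2.70, -1.85 and -2.54 on the KO arrays and -4.14, -3.79 and -4.50 on the WT arrays, a log2 difference of 1.78 ± 0.28 (limma adjusted p = 0.0952). The median difference of the 5 was -0.083, with 2 positive and 3 negative. These genes are named after their values were seen. The members over 1 log2 unit below the others on KO replicate 2 all had their lowest value there. All of them but Slc34a3 had their next lowest on KO replicate 3, and Slc34a3 had it on WT replicate 2. How often this holds over all genes was not counted.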
